A study of Homo sapiens with 12 samples.

Results

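Depletion of U2SURP, a protein of the U2 splicing particle, was compared with a control siRNA in HEK293 cells, a human line of embryonic kidney origin. The comparison rests on 6 of the 12 libraries of the study, chosen by the siRNA named in their labels: 3 libraries from cells given a SMARTpool, a mixture of siRNAs, against U2SURP, and 3 from cells given a non-targeting siRNA (number 3 of its product line) whose label names no pool. The other 6 libraries came from cells given a SMARTpool against RBM17 or against CHERP, with 3 libraries each, and they are used here to show where the U2SURP response differs. All groups carry the same labels for the cells: HEK293 as the source and, as the cell line, HEK293T, a derivative that carries the large T antigen of SV40, at 10 passages. The labels give no dose, no time after transfection and no separate culture for each library, and the spread that the p-values rest on may therefore be technical. RNA was made into stranded poly(A)-selected libraries and the reads counted per gene, and expression is given throughout in CPM, counts per 1e6 counts of the scaled library.

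U2SURP, also called SR140, carries an RNA recognition motif, a SURP domain and an arginine-serine-rich tail. It sits with RBM17 and CHERP near the U2 small nuclear ribonucleoprotein, the particle that pairs with the branch site of an intron and prepares it for the first cut. Changes in splicing can alter the amount of an mRNA through premature stop codons and nonsense-mediated decay. The deposited tables count reads per gene, so they show amounts of RNA and not exon use, and in bulk RNA fewer cells of a type and less RNA per cell cannot be told apart.

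Each library held 252505520 to 320986785 counts, and the 29003 genes that passed the filter on low counts, of 60554 gene IDs, were tested. The U2SURP-knockdown libraries lay at one end of the first principal component of the 6 libraries (47.7% of variance) and the controls at the other. Control library 3 stood apart from the other controls on the second component (15.7%), at -53.6 against 21.3 and 30.7. The libraries of each group carry consecutive numbers in the labels, so a preparation batch and the knockdown cannot be told apart. Genes of the mitochondrial genome took 5.08%, 5.15% and 4.94% of counts in the U2SURP-knockdown libraries, against 8.31%, 7.88% and 8.7% in the controls (exact permutation test, two-sided, p = 0.1, the smallest that 3 against 3 can give). The 10 markers used for HEK293 cells all passed the filter on low counts, with a summed level of 730.1 to 786 CPM in U2SURP knockdown and 709 to 781 CPM in control (3 higher, 3 lower). VIM and NEFM gave most of that sum, with means of 281 and 232 CPM in U2SURP knockdown, whereas PAX8 was near the floor (0.0297 CPM). Markers of other cells summed to far less: 120.0 to 125 against 149.5 to 158 CPM for fibroblasts (4 of 8 tested members lower, none higher), 10.9 to 11.5 against 14.5 to 15.5 CPM for mature epithelia (2 of 6 lower), 2.72 to 3.59 against 4.002 to 5.001 CPM for blood cells (1 of 5 higher, 1 lower) and 0.593 to 0.915 against 1.46 to 1.62 CPM for endothelium (3 of 6 lower), with U2SURP knockdown first in each pair. FBN1, with means of 109 CPM in U2SURP knockdown and 132 CPM in control, gave most of the fibroblast sum. The sums therefore depend on a few abundant genes. The leukocyte marker PTPRC, the T cell marker CD3E, the erythroid marker HBB, the endothelial marker CDH5 and the keratins KRT5 and KRT14 did not pass the filter on low counts.

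The siRNA pool lowered its target. U2SURP (chr3:142964497-143060546, GRCh38, plus strand) had 149, 144 and 138 CPM in the U2SURP-knockdown libraries, against 434, 480.4 and 499 CPM in the control libraries. The groups did not overlap, and the knockdown kept 30.5% of the control level (log2 fold change -1.71 ± 0.062, edgeR adjusted p = 7.05e-15). From here on a value with ± in brackets is a log2 fold change in U2SURP knockdown over control with its standard error, unless another comparison is named, and each adjusted p is from edgeR's quasi-likelihood test with Benjamini-Hochberg adjustment over all tested genes. Its mean was 512 ± 13.8 CPM in RBM17 knockdown and 563 ± 41.3 CPM in CHERP knockdown (SD, n = 3 each), both above the level in U2SURP knockdown. RBM17 had 122, 121 and 123 CPM in U2SURP knockdown, against 112, 116 and 118 CPM in control, and CHERP had 58.4, 60.7 and 61.3 CPM in U2SURP knockdown, against 61.6, 62.1 and 60.1 CPM in control. Neither partner passed the test (0.083 ± 0.047, adjusted p = 0.16 for RBM17; -0.027 ± 0.051, adjusted p = 0.71 for CHERP).

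U2SURP knockdown moved a large share of the transcriptome by small amounts. Of the 29003 genes tested, 6119 (21.1%) were called higher and 6430 (22.2%) lower at an adjusted p under 0.05, 43.3% in all, and the libraries of the groups did not overlap for 52.0% of genes. A change of at least 2-fold was found in 637 genes that rose (2.2%) and 941 that fell (3.24%), together 5.44%. Far fewer were found when a mean of at least 1 CPM in a group was required, so many of these genes were scarce. Among the 10942 protein-coding genes with a mean of at least 5 CPM, the closest background for the gene groups described here, 37.2% were called higher and 28.7% lower, with a median log2 fold change of 0.048. The median over all tested genes was -0.025 and the median standard error was 0.135, both on the log2 scale. The plot of change against level shows the called genes spread over the whole range of expression, with few abundant genes beyond a 2-fold change.

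**Figure D1:**
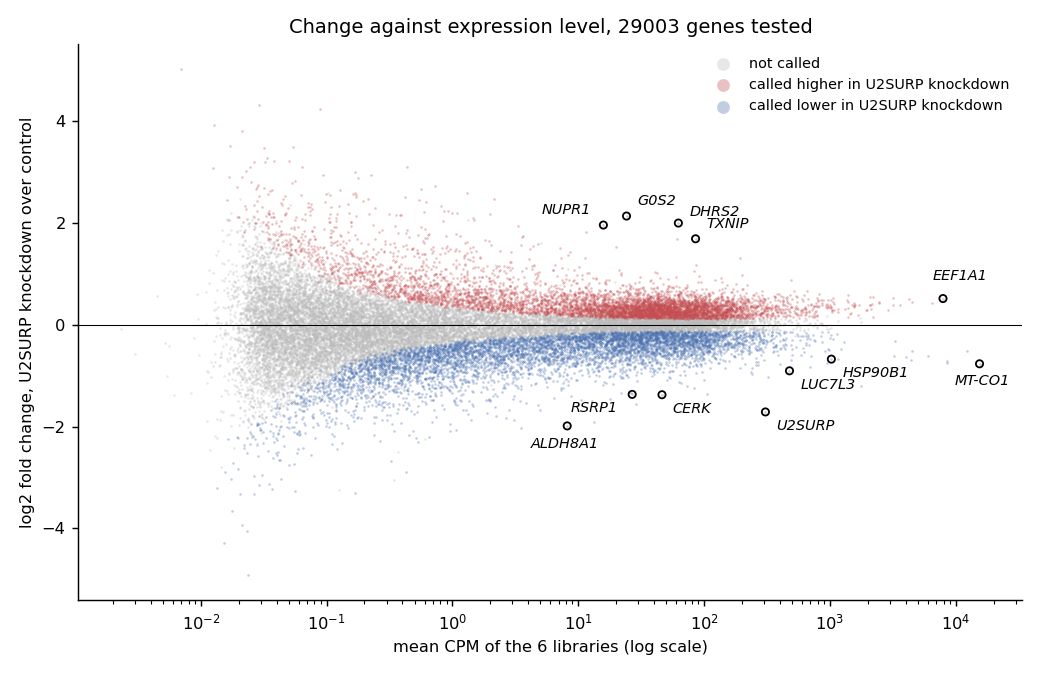
Log2 fold change in U2SURP knockdown over control (vertical axis) against the mean CPM of the 6 libraries (horizontal axis, log scale) for the 29003 genes tested, coloured by call. Named genes are circled: U2SURP is at -1.71, G0S2 at 2.13 and the abundant MT-CO1 and EEF1A1 at -0.77 and 0.51.

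G0S2 led the increases, before DHRS2 and NUPR1. G0S2, an inhibitor of the fat-droplet lipase PNPLA2, had 39.3, 37.2 and 41.7 CPM in U2SURP knockdown, against 9.65, 7.90 and 9.36 CPM in control. That is a 4.39-fold rise (2.13 ± 0.13, adjusted p = 5.59e-08), the largest of any protein-coding gene averaging 5 CPM or more, and no knockdown library came near a control. DHRS2, a mitochondrial and nuclear short-chain dehydrogenase, had 81.1, 109 and 109 CPM in U2SURP knockdown, against 25.3, 24.9 and 24.8 CPM in control (1.9972 ± 0.17, adjusted p = 1.48e-05), with knockdown library 1 below the other two. NUPR1, a small chromatin protein made in stressed cells, had 23.05, 25.1 and 27.4 CPM in U2SURP knockdown, against 6.63, 5.99 and 6.83 CPM in control (1.96 ± 0.11, adjusted p = 3.56e-10). TXNIP, an alpha-arrestin that binds thioredoxin and lowers glucose uptake, had 124, 137 and 131 CPM in U2SURP knockdown, against 38.7, 39.5 and 43.5 CPM in control, a 3.22-fold rise (1.69 ± 0.067, adjusted p = 3.51e-14). In all 4 genes the 3 knockdown libraries lay far above the 3 controls.

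The other 8 of the 12 largest increases were between 1.18 and 1.81 on the log2 scale. AKNA, a protein of AT-hook type found at centrosomes, rose 3.2-fold (1.68 ± 0.19, adjusted p = 0.000115) and PKD1L1, a polycystin, rose 3.51-fold (1.81 ± 0.093, adjusted p = 2.17e-12). ARRDC3, an alpha-arrestin that sorts receptors, had 21.5, 34.7 and 32.7 CPM in U2SURP knockdown, against 8.91, 10.7 and 11.3 CPM in control. Its knockdown libraries differed among themselves by more than those of the other genes, and its standard error was correspondingly wide (1.53 ± 0.27, adjusted p = 0.0018). RGS5, a brake on G-protein signalling, rose (1.43 ± 0.076), although a second gene model of that name on the same strand fell, so that reads of the locus may be split. TINCR (1.37 ± 0.072), annotated as protein-coding, ASS1, which makes argininosuccinate for arginine synthesis (1.32 ± 0.063), ATF5, a stress transcription factor that overlaps NUP62 on the opposite strand (1.30 ± 0.084), and THBS4, a secreted matrix protein (1.18 ± 0.078), completed the 12, these last 4 with an adjusted p of at most 6.79e-11.

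Of the 12 largest decreases, U2SURP itself among them, 6 were in genes of membrane or secreted proteins. The share of such genes among all those ranked was not counted. ALDH8A1, an aldehyde dehydrogenase of tryptophan breakdown, had 3.65, 3.01 and 3.22 CPM in U2SURP knockdown, against 14.4, 13.4 and 11.3 CPM in control, so that 25.2% of the control level was left (-1.99 ± 0.11, adjusted p = 3.01e-12). CERK, which phosphorylates ceramide, had 25.8, 25.5 and 26.01 CPM in U2SURP knockdown, against 65.9, 64.3 and 70.4 CPM in control (-1.38 ± 0.057, adjusted p = 4.25e-14). The CERK values were the tightest of these, with the knockdown libraries within 1 CPM of each other. SLC6A6, the taurine transporter, had 71.1, 52.5 and 54.9 CPM in U2SURP knockdown, against 159, 147 and 154 CPM in control (-1.37 ± 0.18, adjusted p = 0.000211), and SERPINE2, a secreted protease inhibitor, had 13.5, 11.6 and 11.8 CPM in U2SURP knockdown, against 29.1, 30.8 and 33.9 CPM in control (-1.35 ± 0.066, adjusted p = 7.09e-13). The knockdown libraries of both lay below every control.

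The others among the 12 largest decreases, after U2SURP itself, were TMEM45A, a membrane protein (-1.50 ± 0.083), ZCCHC12, a transcriptional coactivator (-1.48 ± 0.10), CLSTN2, a synaptic adhesion protein (-1.40 ± 0.078), RSRP1, an arginine-serine-rich protein (-1.37 ± 0.10), IGSF8, an immunoglobulin-type surface protein that joins tetraspanins (-1.34 ± 0.064), NRXN3, a neurexin (-1.33 ± 0.099), and WDR27, a WD-repeat protein (-1.24 ± 0.062). Each of these 7 had an adjusted p of at most 1.43e-08.

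Some of these genes moved in U2SURP knockdown beyond what the other knockdowns showed. Called in the same direction against control, against RBM17 knockdown and against CHERP knockdown were 484 genes that were higher (1.67% of those tested, 335 of them protein-coding) and 578 that were lower (1.99%, 494 protein-coding). For most of them the smallest of the 3 differences was modest: it reached 0.5 on the log2 scale in 121 and 108 genes, and 1 in 24 and 24. CERK stood at 25.8 ± 0.264 CPM in U2SURP knockdown, against 77.8 ± 0.989 CPM in RBM17 knockdown, 71.6 ± 5.87 CPM in CHERP knockdown and 66.8 ± 3.18 CPM in control (SD, n = 3 each). The differences from the other knockdowns were -1.59 ± 0.057, adjusted p = 1.56e-15 (RBM17) and -1.47 ± 0.057, adjusted p = 5.66e-15 (CHERP), and the means of both other knockdowns lay above that of control.

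LAMTOR1, the membrane anchor of the Ragulator complex that recruits mTORC1 to lysosomes, was also lower than in each other group. It had 20.1, 18.3 and 20.3 CPM in U2SURP knockdown, against 36.3, 35.6 and 35.3 CPM in control (-0.87 ± 0.054, adjusted p = 3.2e-11), with 48.9 ± 2.16 CPM in RBM17 knockdown and 40.9 ± 1.09 CPM in CHERP knockdown. LRTOMT overlaps it on the opposite strand. Of the other Ragulator subunits, looked up after this value was seen, LAMTOR4 fell (-0.30 ± 0.068), LAMTOR2 rose (0.20 ± 0.060), and LAMTOR3 (0.13 ± 0.067) and LAMTOR5 (-0.030 ± 0.069) did not pass the test.

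SKP2, the F-box subunit that marks CDKN1B for destruction, had 58.1, 60.3 and 58.7 CPM in U2SURP knockdown, against 95.7, 103 and 110.5 CPM in control (-0.81 ± 0.062, adjusted p = 6.73e-10). Its mean was 134 ± 4.43 CPM in RBM17 knockdown and 129 ± 12.2 CPM in CHERP knockdown. CDKN1B mRNA, looked up after this value was seen, rose slightly, with 35.3, 33.6 and 31.98 CPM in U2SURP knockdown, against 26.2, 28.1 and 32.4 CPM in control, and control library 3 overlapped the knockdown (0.22 ± 0.075, adjusted p = 0.0217). ARID3A, a DNA-binding factor, and TMEM120A, a membrane protein that overlaps POR on the opposite strand, were the last of the 8 decreases ranked by their smallest difference, at -0.74 ± 0.085 and -0.71 ± 0.068 against control. Of the increases, G0S2, AKNA and DHRS2 were also above both other knockdowns, as were ARRDC4, an alpha-arrestin (1.18 ± 0.089 against control), RASGEF1C, an exchange factor for small GTPases (0.76 ± 0.079), UBA7, the activating enzyme for ISG15 (1.07 ± 0.093), STXBP6, a syntaxin-binding protein (0.92 ± 0.077), and SGK2, a kinase related to AKT (1.08 ± 0.11). The plot of expression by library shows that G0S2 and ARRDC4 had intermediate levels in the other knockdowns, between U2SURP knockdown and control.

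**Figure D2:**
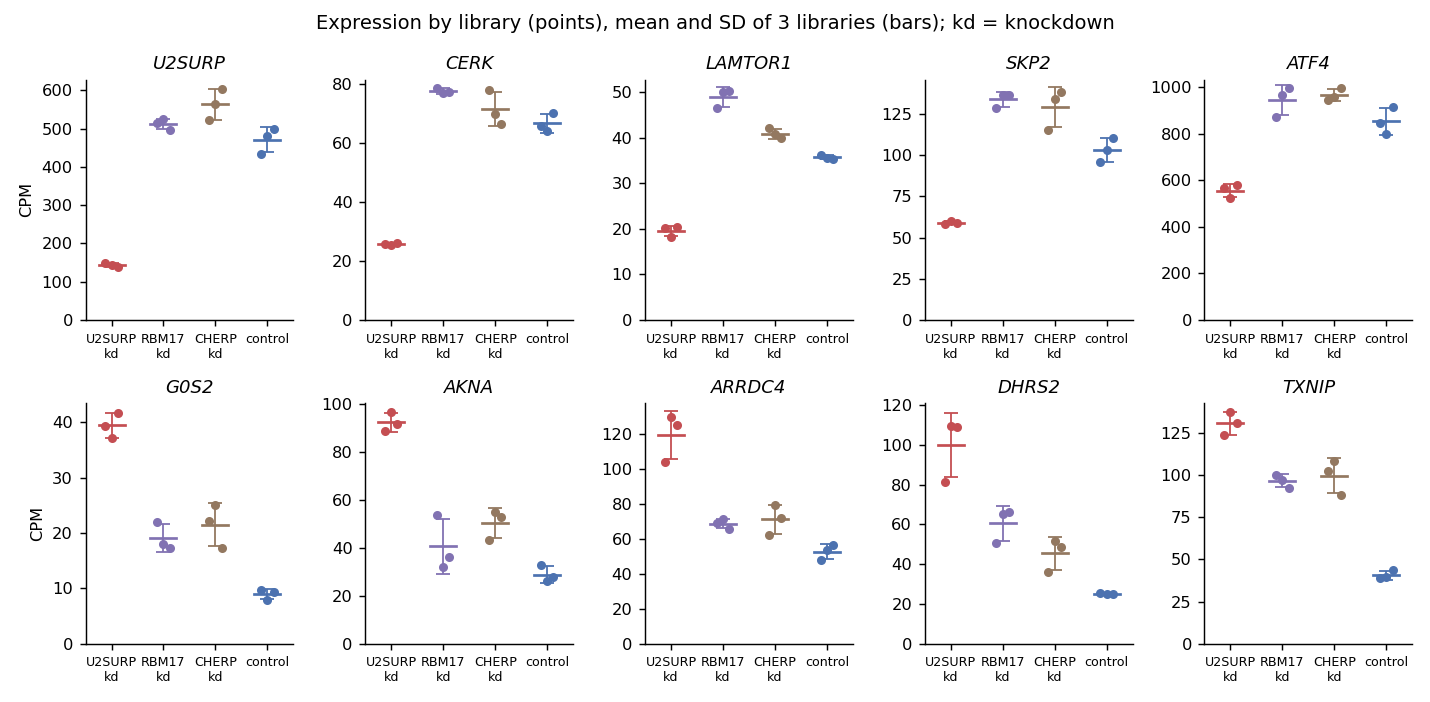
CPM in each library (points) with the mean and SD of 3 libraries (bars) in U2SURP, RBM17 and CHERP knockdown and in control, for U2SURP, 4 genes lower and 5 genes higher in U2SURP knockdown than in each of the other groups. CERK is at 25.8 ± 0.264 CPM in U2SURP knockdown and above 60 CPM in every other library.

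Genes of the spliceosome core were mostly higher, and genes of its arginine-serine-rich regulators mostly lower. Among 41 proteins of the U4/U6.U5 particle and the catalytic steps, 31 rose and 3 fell (median 0.24, against 0.048 in expressed protein-coding genes and -0.025 in all). PPIL1, a prolyl isomerase of the activated spliceosome, had 75.05, 78.4 and 78.8 CPM in U2SURP knockdown, against 45.6, 47.1 and 53.4 CPM in control (0.67 ± 0.057, adjusted p = 3.03e-09). XAB2 (0.57 ± 0.055), a scaffold of the catalytic complex, and CWC27 (0.62 ± 0.065), another isomerase, rose by similar amounts. The 3 that fell were DDX23, a helicase of the tri-snRNP (-0.29 ± 0.052), PRPF38B (-0.25 ± 0.050) and SNRNP27 (-0.19 ± 0.070). SNRPB, SNRPD1 and SNRPE of the Sm ring rose with 2 other members, 5 of the 7 tested (median 0.25); SNRPB had 325, 300.1 and 333 CPM in U2SURP knockdown, against 231, 220.4 and 245 CPM in control. The ring's SNRPN did not pass the filter on low counts.

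In the U2 particle and the factors around it, 12 of 26 genes rose and 3 fell (median 0.12). RBM10, an alternative splicing regulator, had 141, 151 and 151 CPM in U2SURP knockdown, against 106, 102 and 104 CPM in control (0.50 ± 0.049, adjusted p = 2.04e-08), and its relative RBM5 had 218, 203 and 215 CPM in U2SURP knockdown, against 294, 301 and 282 CPM in control (-0.46 ± 0.050, adjusted p = 8.1e-08). The groups did not overlap for either gene, and the pair moved in opposite directions. SF3B2 (0.46 ± 0.055) and SF3A1 (0.43 ± 0.054) rose, DDX46 (-0.26 ± 0.047) and SUGP1 (-0.16 ± 0.053) fell, and SF3B1, the largest subunit that contacts the branch site, stood at 0.052 ± 0.052, adjusted p = 0.459. U2AF1, which reads the 3' splice site, had 5.12, 4.86 and 4.75 CPM in U2SURP knockdown, against 10.95, 8.38 and 12.3 CPM in control. The groups did not overlap, but it missed the threshold (-1.10 ± 0.39, adjusted p = 0.0509), and a near-identical copy of the gene in GRCh38 makes its reads uncertain.

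SR proteins bind exons and help define splice sites. Of 14 members, 7 fell and 1, TRA2B, rose (0.20 ± 0.063), with a median of -0.17. SRSF5 had 206, 182 and 199.7 CPM in U2SURP knockdown, against 339, 336 and 341 CPM in control (-0.79 ± 0.053, adjusted p = 7.03e-11), with SRSF2 (-0.42 ± 0.054) and SRSF4 (-0.36 ± 0.047) next. Of 34 other arginine-serine-rich and speckle proteins, 20 fell and 5 rose (median -0.23). LUC7L, a relative of a yeast U1 protein, had 36.99, 33.3 and 34.4 CPM in U2SURP knockdown, against 72.8, 72.6 and 71.6 CPM in control, 48.2% of control (-1.05 ± 0.055, adjusted p = 2.03e-12). LUC7L3 had 358, 306 and 333 CPM in U2SURP knockdown, against 604, 621 and 642 CPM in control (-0.91 ± 0.056, adjusted p = 3.13e-11) and PNISR, a speckle protein, had 174, 152 and 160.3 CPM in U2SURP knockdown, against 304, 319.6 and 303 CPM in control (-0.93 ± 0.053, adjusted p = 6.42e-12). No library of either group overlapped the other for these genes. LUC7L3 and PNISR were also low in RBM17 knockdown (means 304 and 143 CPM) and in CHERP knockdown (337 and 161 CPM). RSRC2 of the same list was not low in CHERP knockdown, at 157 CPM against 95.5 CPM in U2SURP knockdown and 150 CPM in control. The kinases CLK1 (-0.65 ± 0.056) and CLK4 (-0.42 ± 0.054), which phosphorylate SR proteins, fell too, while SCAF8 (0.44 ± 0.047), SNRNP48 (0.49 ± 0.055) of the minor spliceosome and SCAF1 (0.23 ± 0.051) rose.

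Against these, hnRNP genes were more often higher: 16 of 26 rose and 4 fell (median 0.20). HNRNPR had 293, 303 and 291 CPM in U2SURP knockdown, against 182, 194 and 217 CPM in control (0.58 ± 0.057, adjusted p = 2.37e-08), followed by PTBP3 (0.61 ± 0.066), a polypyrimidine tract protein, and HNRNPUL1 (0.49 ± 0.054). HNRNPDL (-0.43 ± 0.062), HNRNPH1 (-0.34 ± 0.051) and HNRNPA0 (-0.20 ± 0.051) were among those that fell. Of 14 factors of nonsense-mediated decay 7 rose and 1, NBAS, fell (-0.21 ± 0.052), with a median of 0.098. UPF3B (0.45 ± 0.070) and SMG5 (0.31 ± 0.053) were among those that rose, and UPF1, the central helicase, rose (0.18 ± 0.049). The spliced hosts of small nucleolar RNAs, whose transcripts are degraded by that pathway, had 8 of 15 tested members higher and 2 lower (median 0.17; SNHG29 did not pass the filter on low counts). SNHG5 had 225, 218 and 233 CPM in U2SURP knockdown, against 133, 135 and 158 CPM in control (0.67 ± 0.060, adjusted p = 5.64e-09), and EPB41L4A-AS1 (0.51 ± 0.060) and GAS5 (0.41 ± 0.059) rose as well.

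**Figure D3:**
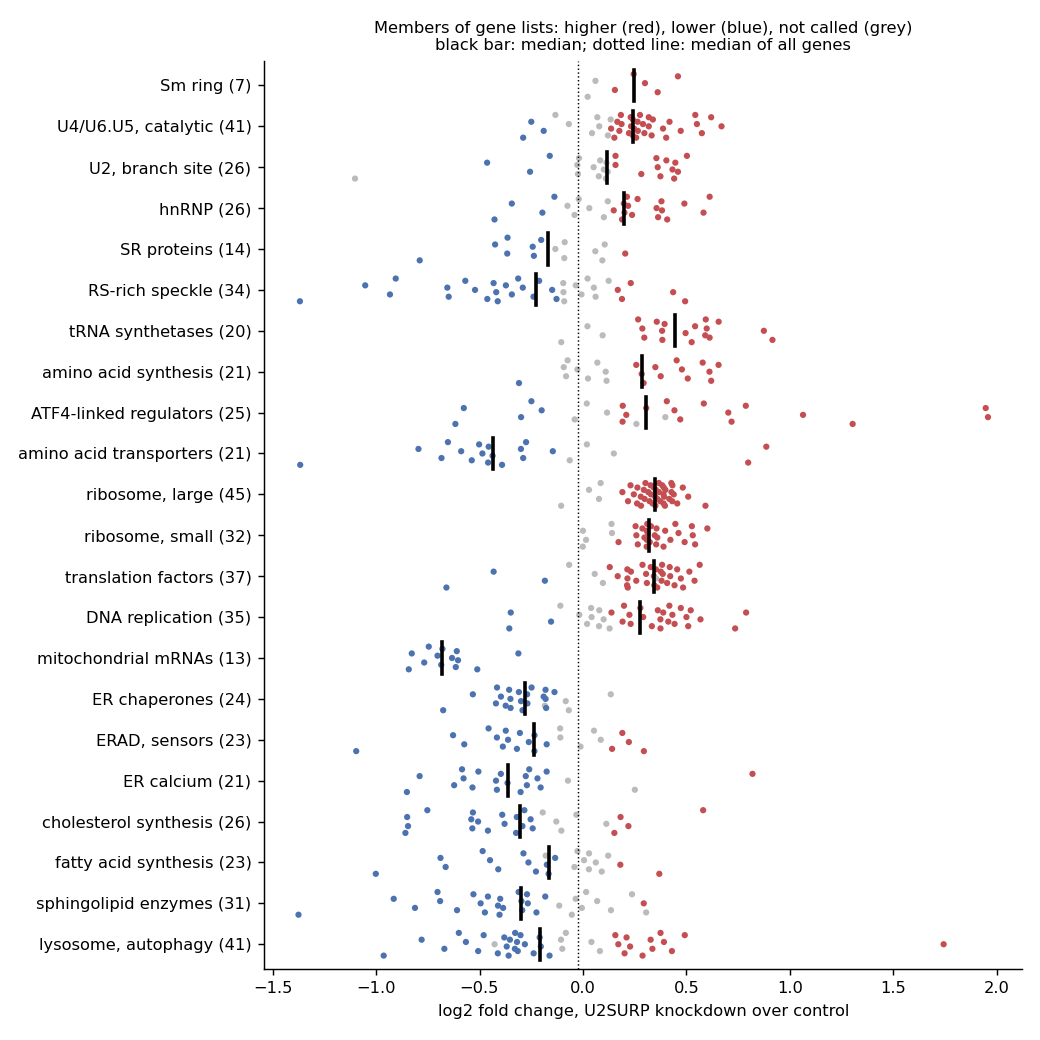
Log2 fold change in U2SURP knockdown over control (horizontal axis) of every tested member of 22 gene lists (rows, number tested in brackets), red where called higher, blue where called lower and grey where not called, with the list's median as a bar and the median of all genes, -0.025, as a dotted line. Medians run between -0.68 for mitochondrial mRNAs and 0.45 for tRNA synthetases.

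Amino acid metabolism changed in a divided way. ATF4 is a transcription factor whose translation rises when eIF2 is phosphorylated, and it activates genes that supply amino acids and charged tRNAs. ATF4 mRNA fell: it had 566, 524 and 579 CPM in U2SURP knockdown, against 845, 800.5 and 914 CPM in control (-0.62 ± 0.061, adjusted p = 2.54e-08), and it was below both other knockdowns (-0.76 ± 0.061, adjusted p = 5.95e-10 against RBM17 knockdown; -0.80 ± 0.061, adjusted p = 1.03e-09 against CHERP knockdown). Of 25 regulators linked to ATF4, ATF4 among them, 15 rose and 5 fell (median 0.31). TRIB3, a pseudokinase that feeds back on ATF4, had 109, 116 and 115 CPM in U2SURP knockdown, against 59.5, 49.4 and 53.7 CPM in control (1.06 ± 0.085, adjusted p = 2.69e-08), DDIT3, the factor also called CHOP, had 42.1, 38.8 and 40.9 CPM in U2SURP knockdown, against 26.3, 22.00 and 25.7 CPM in control (0.72 ± 0.062, adjusted p = 3.17e-09), and CHAC1, a glutathione-degrading enzyme, had 29.96, 28.1 and 31.1 CPM in U2SURP knockdown, against 21.3, 18.2 and 19.99 CPM in control (0.58 ± 0.063, adjusted p = 9.66e-08). EIF4EBP1, a brake on cap-dependent translation, had 191, 184 and 201 CPM in U2SURP knockdown, against 113, 103 and 117 CPM in control (0.79 ± 0.053, adjusted p = 7.03e-11). These genes were above control in all 3 knockdown libraries, whereas VLDLR, a lipoprotein receptor, and TNFRSF10B, a death receptor, fell (-0.58 ± 0.054 and -0.30 ± 0.050).

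Enzymes of this network were mostly higher and amino acid transporters mostly lower. All 20 cytosolic aminoacyl-tRNA synthetases were tested: 17 rose and none fell (median 0.45). WARS, for tryptophan, had 169.7, 187 and 181 CPM in U2SURP knockdown, against 94.7, 92.6 and 97.7 CPM in control (0.92 ± 0.050, adjusted p = 3.83e-12). SARS, for serine, and AARS, for alanine, rose (0.87 ± 0.054) and 0.66 ± 0.050. Of 21 enzymes of serine, one-carbon and amino acid synthesis 12 rose and 1 fell (median 0.28). PHGDH, the first enzyme of serine synthesis, had 782, 807 and 819 CPM in U2SURP knockdown, against 509, 483 and 537 CPM in control (0.66 ± 0.052, adjusted p = 9.83e-10). ASNS, asparagine synthetase, had 545, 590.3 and 604 CPM in U2SURP knockdown, against 387, 369 and 408 CPM in control (0.58 ± 0.058, adjusted p = 2.75e-08), SHMT2 rose (0.61 ± 0.055), and SHMT1, the cytosolic form, fell (-0.31 ± 0.053).

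Of 21 amino acid transporters, 16 fell and 2 rose, a median of -0.44. SLC1A5, a glutamine carrier, had 186, 188 and 196 CPM in U2SURP knockdown, against 334, 306 and 347 CPM in control (-0.80 ± 0.055, adjusted p = 1.2e-10). SLC7A1, for arginine and lysine (-0.54 ± 0.053), SLC6A9, for glycine (-0.59 ± 0.065), and SLC38A2, for neutral amino acids (-0.68 ± 0.074), fell as well, with no overlap between groups. The pair that rose was SLC38A5 (0.80 ± 0.14) and SLC43A2 (0.89 ± 0.26, adjusted p = 0.0242), and SLC43A2 lost its call when single libraries were left out. SLC7A5, the leucine carrier, was level, with 671, 699.7 and 693 CPM in U2SURP knockdown, against 710.1, 629 and 697 CPM in control (0.019 ± 0.058, adjusted p = 0.825).

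The C/EBP-ATF response element, searched here as TGATGNAA on both strands, is the site that ATF4 binds with C/EBP partners. It was found in 231 of 12608 promoters of tested protein-coding genes (1.83%), taken as 250 bases before to 50 bases after the start in RefSeq (GRCh38.p14). It was found in 4 of the 21 promoters matched for the regulators (CHAC1, ATF3, FGF21 and PPP1R15B), 3 of 13 for the synthesis enzymes (ASNS, GOT1 and MTHFD1L) and 4 of 17 for the transporters (SLC1A3, SLC38A1, SLC7A1 and SLC3A2). Of the 231 genes with a match 73 rose and 53 fell, with a median of 0.099, and all 4 transporters with a match fell. The 250 bases before the start of CHAC1 (chr15:40953221-40953470, plus strand) and ASNS (chr7:97872409-97872658, minus strand) are shown because both genes rose while ATF4 mRNA fell; capitals mark the element.
CHAC1: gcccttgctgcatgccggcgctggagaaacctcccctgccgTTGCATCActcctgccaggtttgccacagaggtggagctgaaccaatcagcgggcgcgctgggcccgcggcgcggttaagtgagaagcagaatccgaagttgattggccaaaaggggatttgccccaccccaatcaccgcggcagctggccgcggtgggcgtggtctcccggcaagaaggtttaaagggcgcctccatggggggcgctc
ASNS: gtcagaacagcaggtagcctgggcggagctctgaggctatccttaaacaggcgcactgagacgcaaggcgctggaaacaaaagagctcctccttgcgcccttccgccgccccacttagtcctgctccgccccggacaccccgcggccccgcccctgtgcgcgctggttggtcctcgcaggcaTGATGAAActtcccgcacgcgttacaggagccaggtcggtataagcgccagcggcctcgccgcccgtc
Counted from the start, the element lay at -209 to -202 in CHAC1, on the opposite strand, and at -68 to -61 in ASNS.

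Most mRNAs of the folding machinery of the endoplasmic reticulum (ER) were lower. Of 24 ER chaperones and folding enzymes 20 fell and none rose, with a median of -0.28. Without control library 3, 14 fell and 1 rose (median -0.22). HSP90B1, the ER form of HSP90, had 773, 808 and 792 CPM in U2SURP knockdown, against 1217, 1194 and 1380.2 CPM in control (-0.68 ± 0.066, adjusted p = 2.02e-08). CALR, calreticulin, had 303, 287 and 275 CPM in U2SURP knockdown, against 409, 388 and 455 CPM in control (-0.53 ± 0.061, adjusted p = 2.14e-07), PDIA4, a disulphide isomerase, fell (-0.40 ± 0.050), and HSPA5, the HSP70 of the ER, had 654, 678 and 689 CPM in U2SURP knockdown, against 843, 784 and 877 CPM in control (-0.31 ± 0.053, adjusted p = 4.66e-05). CANX, the membrane-bound relative of calreticulin, stood at 0.13 ± 0.065, adjusted p = 0.101, the only member with a positive value. In 15 of the 24 genes the U2SURP knockdown was above CHERP knockdown and in none below it, where 15.0% of all genes were called higher; 13 were below RBM17 knockdown and 2 above it, where 23.0% of genes were lower.

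Genes of the stress sensors and of the degradation of misfolded ER proteins were lower in most cases as well. Of 23 genes 14 fell and 4 rose (median -0.23). DERL3, a degradation channel protein, had 3.92, 4.39 and 4.56 CPM in U2SURP knockdown, against 9.87, 8.99 and 8.67 CPM in control (-1.10 ± 0.11, adjusted p = 6.07e-08), SYVN1, the main ubiquitin ligase of the branch, had 71.6, 65.3 and 67.4 CPM in U2SURP knockdown, against 111, 101 and 104 CPM in control (-0.63 ± 0.064, adjusted p = 3.82e-08), and ATF6B, a membrane-bound transcription factor, had 65.8, 61.5 and 67.4 CPM in U2SURP knockdown, against 101, 90.3 and 98.98 CPM in control (-0.57 ± 0.054, adjusted p = 1.34e-08). TNXB shares a strand and bases with ATF6B and rose (0.97 ± 0.13), so reads of the overlap are uncertain. Of the sensors, XBP1 (-0.26 ± 0.059) and EIF2AK3, also called PERK (-0.32 ± 0.053), fell, and ATF6 (0.053 ± 0.056, adjusted p = 0.476) and ERN1 (0.086 ± 0.054, adjusted p = 0.212) did not pass the test. UBE2J1 (0.29 ± 0.054), UBE2G2 (0.22 ± 0.049) and VCP (0.19 ± 0.053), which ubiquitinate or extract proteins from the cytosolic side, were among those that rose.

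The ER stress response element, a CCAAT box and a CCACG box held apart by a fixed spacer, is the site through which NF-Y and ATF6 act. Searched on both strands, it was in 6 of 23 matched promoters of ER chaperones (26.1%: HSPA5, HSP90B1, CALR, CRELD2, CANX and ERO1B), against 19 of 12608 in all tested protein-coding genes (0.151%). Of those 19 genes 8 fell and 3 rose. Of the 6 chaperone genes 4 fell, CRELD2 among them (-0.37 ± 0.059), and CANX and ERO1B (-0.18 ± 0.12) did not pass the test. The 250 bases before the start of the 4 that fell are shown, with the element in capitals: HSP90B1 (chr12:103930160-103930409, plus strand), CALR (chr19:12938359-12938608, plus strand), CRELD2 (chr22:49918384-49918633, plus strand) and HSPA5 (chr9:125241344-125241593, minus strand).
HSP90B1: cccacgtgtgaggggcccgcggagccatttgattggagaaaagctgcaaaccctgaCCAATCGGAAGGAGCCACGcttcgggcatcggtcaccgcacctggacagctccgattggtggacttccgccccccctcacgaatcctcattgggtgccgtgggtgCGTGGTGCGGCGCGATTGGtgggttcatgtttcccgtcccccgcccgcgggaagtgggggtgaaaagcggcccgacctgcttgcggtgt
CALR: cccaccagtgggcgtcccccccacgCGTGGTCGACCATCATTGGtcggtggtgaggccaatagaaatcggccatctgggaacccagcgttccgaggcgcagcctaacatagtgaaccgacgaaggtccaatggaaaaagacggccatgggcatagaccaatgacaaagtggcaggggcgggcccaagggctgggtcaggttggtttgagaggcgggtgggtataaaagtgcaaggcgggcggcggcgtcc
CRELD2: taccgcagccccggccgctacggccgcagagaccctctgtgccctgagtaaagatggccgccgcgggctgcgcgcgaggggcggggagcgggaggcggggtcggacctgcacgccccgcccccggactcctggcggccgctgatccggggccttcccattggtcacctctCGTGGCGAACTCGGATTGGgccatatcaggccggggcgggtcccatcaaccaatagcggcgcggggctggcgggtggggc
HSPA5: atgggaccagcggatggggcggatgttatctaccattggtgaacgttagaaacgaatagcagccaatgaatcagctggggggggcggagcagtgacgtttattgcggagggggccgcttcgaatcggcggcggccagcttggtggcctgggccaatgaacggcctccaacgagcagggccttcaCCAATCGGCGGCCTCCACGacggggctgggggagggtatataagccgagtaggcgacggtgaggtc
HSP90B1 holds 2 copies, one on each strand, the nearer ending 71 bases before the start, and those of CALR and CRELD2 lie on the opposite strand. A match is a description of the letters in the window.

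Genes that bring proteins to the ER membrane and across it were divided. SRP54 (0.49 ± 0.052) and SRP72 (0.48 ± 0.064), which meet the signal sequence in the cytosol, rose. SEC61A1, the channel itself, had 304, 296 and 302 CPM in U2SURP knockdown, against 419.6, 383 and 421 CPM in control (-0.44 ± 0.052, adjusted p = 3.43e-07), and RPN1 of the oligosaccharyltransferase (-0.48 ± 0.059) and SRPRA of the docking receptor (-0.41 ± 0.051) fell too. The 35 genes of this list divided into 9 higher and 17 lower (median -0.11), but into 12 and 13 without control library 3 (median -0.034). ER calcium genes were more uniform: 18 of 21 fell and 1, RYR1, rose (0.82 ± 0.12, at a low mean of 2.80 ± 0.116 CPM in knockdown and 1.59 ± 0.145 CPM in control), with a median of -0.36. ITPR2, a calcium release channel, had 36.1, 32.7 and 33.6 CPM in U2SURP knockdown, against 59.1, 61.6 and 64.03 CPM in control (-0.85 ± 0.057, adjusted p = 7.76e-11). TRPC1, an entry channel, had 19.8, 18.9 and 18.5 CPM in U2SURP knockdown, against 31.3, 33.5 and 34.02 CPM in control (-0.79 ± 0.059, adjusted p = 4.23e-10). ITPR3 (-0.58 ± 0.055), the store sensors STIM1 (-0.51 ± 0.058) and STIM2 (-0.62 ± 0.061) and the pump ATP2A2 (-0.30 ± 0.053) fell with them.

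Genes of lipid synthesis were more often lower than higher. Of 27 genes of cholesterol synthesis and uptake 26 were tested, of which 17 fell and 4 rose (median -0.31). SQLE, squalene epoxidase, had 103, 105 and 102 CPM in U2SURP knockdown, against 177, 183 and 203 CPM in control (-0.86 ± 0.055, adjusted p = 5.08e-11), and its groups did not overlap. DHCR7, which acts late in the pathway (-0.75 ± 0.059), and INSIG1, which holds back the activation of sterol genes (-0.85 ± 0.10), fell too. PMVK, a soluble kinase of the early pathway, rose (0.58 ± 0.060), and SREBF2, the factor that drives these genes, stood at -0.10 ± 0.056, adjusted p = 0.144. In the fatty acid list 12 of 23 fell and 2 rose (median -0.17); 11 and 3 did without control library 3 (median -0.11), and 12 and 4 with offsets for GC content and length. SCD5, a desaturase, had 13.4, 11.8 and 12.3 CPM in U2SURP knockdown, against 24.1, 23.8 and 27.1 CPM in control, 49.9% of control (-1.0014 ± 0.073, adjusted p = 2.92e-10), and FADS2 (-0.69 ± 0.061) and ELOVL1 (-0.66 ± 0.065) came next. ME1 (0.37 ± 0.062) and ACLY (0.18 ± 0.053), which supply NADPH and acetyl-CoA in the cytosol, were the pair that rose, and FASN itself fell slightly (-0.17 ± 0.056). The sterol response element TCACNCCAC was found in 1 of 20 promoters of the cholesterol list, that of SREBF2, and in 142 of 12608 (1.13%).

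CERK was the extreme of a wider fall in sphingolipid genes, of which 21 of 31 fell and 1, SMPD4, rose (0.29 ± 0.046), with a median of -0.30. UGCG, which makes glucosylceramide, had 23.5, 22.7 and 21.8 CPM in U2SURP knockdown, against 31.6, 33.8 and 38.3 CPM in control (-0.61 ± 0.068, adjusted p = 1.5e-07). CERS1, a ceramide synthase, had 4.96, 5.15 and 4.85 CPM in U2SURP knockdown, against 8.22, 7.16 and 8.77 CPM in control (-0.69 ± 0.082, adjusted p = 3.61e-07), and DEGS1, which completes ceramide, had 167, 159 and 161 CPM in U2SURP knockdown, against 221, 217 and 249 CPM in control (-0.49 ± 0.061, adjusted p = 6.01e-07). Against the other knockdowns DEGS1 did not differ (-0.10 ± 0.061, adjusted p = 0.205 for RBM17; 0.084 ± 0.061, adjusted p = 0.342 for CHERP) whereas CERK did. Of 20 tested genes of triglyceride storage 10 fell and 4 rose (CIDEB did not pass the filter on low counts). G0S2 was the largest rise, and its target PNPLA2 had 29.2, 29.1 and 28.5 CPM in U2SURP knockdown, against 36.5, 33.5 and 33.4 CPM in control (-0.25 ± 0.053, adjusted p = 0.000414). LPIN1 (0.36 ± 0.051) and LPIN2 (0.32 ± 0.050), phosphatidate phosphatases, rose, and DGAT1 (-0.40 ± 0.057), PNPLA3 (-0.36 ± 0.067) and AGPAT2 (-0.30 ± 0.060), which build triglyceride or remodel it, fell.

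Among glucose-sensing genes, TXNIP and ARRDC4 rose and the glucose transporters fell. ARRDC4 had 104, 129.7 and 125 CPM in U2SURP knockdown, against 48.1, 53.6 and 56.7 CPM in control (1.18 ± 0.089, adjusted p = 1.87e-08). SLC2A1, the main glucose transporter, had 47.1, 46.4 and 48.96 CPM in U2SURP knockdown, against 95.2, 91.4 and 95.96 CPM in control (-0.99 ± 0.066, adjusted p = 6.82e-11), and SLC2A3 fell (-0.58 ± 0.11). TXNIP was above both other knockdowns (0.44 ± 0.065, adjusted p = 7.5e-06 against RBM17 knockdown; 0.39 ± 0.065, adjusted p = 6.93e-05 against CHERP knockdown), while SLC2A1 was below RBM17 knockdown (-0.89 ± 0.066, adjusted p = 1.72e-10) and level with CHERP knockdown (0.011 ± 0.065, adjusted p = 0.926). MLXIP, also called MondoA, which activates TXNIP and ARRDC4 when glucose phosphate is high, had 209, 203 and 199 CPM in U2SURP knockdown, against 214, 204 and 201 CPM in control (-0.017 ± 0.057, adjusted p = 0.836). Its partner MLX did not pass the test either (-0.026 ± 0.056, adjusted p = 0.741). MLXIPL of the same list fell, with means of 19.3 CPM in U2SURP knockdown and 25.9 CPM in control (-0.42 ± 0.079, adjusted p = 0.000121). ARRDC1 fell (-0.60 ± 0.084) and TXN2 rose (0.28 ± 0.056), and in all 5 of the 12 tested genes were higher and 5 lower (ARRDC5 did not pass the filter on low counts).

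TXNIP is known for a carbohydrate response element, a pair of E-box-like motifs with a fixed spacer, searched here on both strands. It was in 17 of 12608 promoters (0.135%), and in 1 of the 10 matched for this list. Of the 17 genes 12 rose and 2 fell, with a median of 0.23. The 250 bases before the TXNIP start (chr1:145996580-145996829, minus strand) carry it in capitals, at -88 to -72 from the start.
TXNIP: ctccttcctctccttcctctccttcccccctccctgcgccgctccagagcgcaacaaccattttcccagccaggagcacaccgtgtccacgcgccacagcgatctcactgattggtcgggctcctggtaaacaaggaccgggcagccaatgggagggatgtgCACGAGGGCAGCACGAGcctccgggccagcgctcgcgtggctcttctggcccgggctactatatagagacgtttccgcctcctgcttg
Glycolytic enzymes showed no common direction: of 23, 7 rose and 5 fell. GAPDH (0.40 ± 0.070), LDHB (0.39 ± 0.065) and PFKL (0.38 ± 0.063) were higher, and PFKFB4 (-0.69 ± 0.077), ENO2 (-0.52 ± 0.067) and ENO3 (-0.55 ± 0.078) lower.

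Cytosolic translation genes rose together by small amounts. Of 45 proteins of the large ribosomal subunit 41 rose and none fell (median 0.35), and of 32 of the small subunit 27 rose and none fell (median 0.32). RPL12 had 1625, 1652 and 1728 CPM in U2SURP knockdown, against 1085, 1029 and 1206 CPM in control (0.59 ± 0.068, adjusted p = 2.23e-07). RPS12 had 967, 984 and 1004 CPM in U2SURP knockdown, against 627, 602 and 719 CPM in control (0.60 ± 0.067, adjusted p = 1.35e-07), and RPS14 rose (0.53 ± 0.061). The values of each group lay apart for these genes; many have processed copies in the genome that could share reads. Of 37 tested translation factors 30 rose and 3 fell (median 0.34; EEF1G did not pass the filter on low counts). EEF1A1, the main elongation factor, had 8929.6, 9465 and 9562 CPM in U2SURP knockdown, against 6292, 6262 and 7015 CPM in control (0.51 ± 0.064, adjusted p = 6.11e-07), and EIF3D, an initiation factor subunit, rose (0.56 ± 0.059). EIF4A2, a helicase of initiation, went the other way, with 201, 195 and 205 CPM in U2SURP knockdown, against 302, 311 and 338 CPM in control (-0.66 ± 0.056, adjusted p = 2.83e-09).

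Ribosomal protein genes also differed between the knockdowns. Against RBM17 knockdown, 40 of 45 large-subunit and 26 of 32 small-subunit genes were higher in U2SURP knockdown, where 21.5% of all genes were. RPS6 was the largest difference, at 1772 ± 56.6 CPM in U2SURP knockdown and 141 ± 6.14 CPM in RBM17 knockdown (3.65 ± 0.070, adjusted p = 3.82e-21), and it rose against control (0.39 ± 0.063). Against CHERP knockdown none was called higher, and 4 of the large and 3 of the small subunit were called lower.

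All 13 mRNAs of the mitochondrial genome fell (median -0.68). MT-ND1 had 2099.9, 2312 and 2214 CPM in U2SURP knockdown, against 4002, 3672 and 4204 CPM in control (-0.84 ± 0.064, adjusted p = 5.07e-10), and MT-CO1, the most abundant of those named, had 11555, 11686 and 11086 CPM in U2SURP knockdown, against 19169, 18069 and 21192 CPM in control (-0.77 ± 0.071, adjusted p = 1.01e-08). MT-ND6, the only mRNA encoded on the light strand, had 696, 696 and 746 CPM in U2SURP knockdown, against 1201, 1124 and 1259 CPM in control (-0.75 ± 0.062, adjusted p = 2.2e-09), and the ribosomal RNAs MT-RNR1 and MT-RNR2 fell as well (-1.21 ± 0.12 and -0.76 ± 0.068). The groups did not overlap for these 3 mRNAs, which come from both strands. MT-CO1 was below control in the other knockdowns too, at 11899 ± 398 CPM (RBM17) and 9712 ± 943 CPM (CHERP; SD, n = 3 each). Against RBM17 knockdown MT-CO1 did not differ (-0.056 ± 0.071, adjusted p = 0.553), while MT-ND1 was lower (-0.46 ± 0.064) and MT-CYB higher (0.42 ± 0.074). Nuclear genes of the respiratory chain did not follow the mitochondrial mRNAs: of 77, 31 rose and 10 fell (median 0.12), or 30 and 18 with offsets for GC content and length (median 0.053). Of expressed protein-coding genes 37.2% were called higher, a share near that of these 77, and 28.7% lower. NDUFS1 (0.46 ± 0.052), SDHB (0.47 ± 0.055) and NDUFC1 (0.48 ± 0.062) rose, while COX6A1 had 74.8, 63.3 and 70.3 CPM in U2SURP knockdown, against 116, 114 and 134 CPM in control (-0.81 ± 0.076, adjusted p = 4.34e-08) and NDUFB9 fell (-0.58 ± 0.070). Among 24 genes of mitochondrial transcription and RNA handling, 9 rose and 6 fell, both near the shares of expressed protein-coding genes. The transcription factor TFAM rose (0.40 ± 0.069), the polymerase POLRMT stood at 0.032 ± 0.052, adjusted p = 0.654, NRF1, a nuclear factor for respiratory genes, rose (0.40 ± 0.051), and FASTKD1, an RNA-binding protein, fell (-0.50 ± 0.060).

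DNA replication genes were mostly higher. Of 35 replication genes 23 rose and 3 fell (median 0.28). E2F2, an activator of S phase genes, had 85.05, 100.1 and 95.3 CPM in U2SURP knockdown, against 56.5, 51.9 and 53.9 CPM in control (0.79 ± 0.059, adjusted p = 4.6e-10). PRIM1, a primase subunit, had 83.03, 98.5 and 90.3 CPM in U2SURP knockdown, against 51.7, 52.2 and 59.3 CPM in control (0.74 ± 0.071, adjusted p = 2.86e-08), and MCM2 of the replicative helicase rose (0.57 ± 0.056). MCM2 did not differ from RBM17 knockdown (-0.095 ± 0.056) or CHERP knockdown (-0.094 ± 0.056), while E2F2 was above both (0.74 ± 0.059 and 0.29 ± 0.059). ORC6 of the origin complex (-0.35 ± 0.049), CCNE1, cyclin E (-0.36 ± 0.084), and POLD1, a polymerase subunit (-0.15 ± 0.050), fell, POLD1 with a sign that turned when offsets for GC content and length were added. Of 38 mitosis genes 15 rose (39.5%, near the 37.2% of expressed protein-coding genes) and 5 fell (median 0.081), or 14 and 12 with offsets for GC content and length (median 0.016). TOP2A, a topoisomerase, rose (0.39 ± 0.061) and MKI67, the proliferation antigen, fell: it had 837, 799.7 and 802 CPM in U2SURP knockdown, against 1170.4, 1109 and 1093 CPM in control (-0.47 ± 0.052, adjusted p = 1.39e-07). SPC25 (0.60 ± 0.070) and SPC24 (-0.22 ± 0.062), partners in the same kinetochore complex, moved in opposite directions.

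Immediate-early genes, which growth factor signals raise, were lower in 14 of 32 cases and higher in 3, with a median of -0.37. EGR2 had 1.89, 1.59 and 1.76 CPM in U2SURP knockdown, against 3.17, 2.91 and 2.99 CPM in control (-0.79 ± 0.12, adjusted p = 6.03e-06), and DUSP4 (-0.57 ± 0.085) and FOSL2 (-0.46 ± 0.074) fell too. KLF10 (0.75 ± 0.051), ATF3 (0.31 ± 0.053) and KLF6 (0.14 ± 0.050) rose. EGR1 had 44.5, 46.4 and 48.6 CPM in U2SURP knockdown, against 61.7, 57.8 and 53.2 CPM in control. It did not pass the test (-0.31 ± 0.26, adjusted p = 0.396), although the groups did not overlap. FOS had 12.6, 8.75 and 12.2 CPM in U2SURP knockdown, against 21.6, 19.4 and 19.8 CPM in control (-0.86 ± 0.32, adjusted p = 0.0578). EGR1 was above the other knockdowns, at 46.5 ± 2.07 CPM in U2SURP knockdown, against 9.87 ± 4.39 CPM in RBM17 knockdown and 17.3 ± 2.34 CPM in CHERP knockdown (2.23 ± 0.28, adjusted p = 0.000196; 1.43 ± 0.27, adjusted p = 0.00437). Of the 32 genes, 14 were higher than in RBM17 knockdown and 7 lower, where 21.5% and 23.0% of all genes were. Compared with CHERP knockdown 20 were higher and 1 lower, where 15.0% and 12.9% of all genes were.

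Genes of neurons and secretory granules, some of which HEK293 cells express, fell in 16 of 43 cases and rose in 7 (median -0.16). Without control library 3 they fell in 11 cases and rose in 7 (median -0.14). Among expressed protein-coding genes 28.7% were lower and 37.2% higher with all libraries. The 3 calsyntenins, adhesion proteins of synapses, all fell. CLSTN1 had 153, 144 and 140.1 CPM in U2SURP knockdown, against 214, 197 and 216 CPM in control (-0.52 ± 0.058). CLSTN2, among the largest decreases, had 5.35, 4.62 and 4.58 CPM in U2SURP knockdown, against 13.3, 11.8 and 13.3 CPM in control. CLSTN3 had 47.5, 38.6 and 41.6 CPM in U2SURP knockdown, against 87.04, 80.1 and 87.8 CPM in control (-0.9969 ± 0.079), and the groups did not overlap for any of the 3. KIF5A, an axonal kinesin, fell (-0.68 ± 0.063), and CACNA1B, a calcium channel (0.64 ± 0.070), RAB3C, a vesicle GTPase (0.62 ± 0.087), and AP3B2, an adaptor subunit (0.58 ± 0.096), rose. Of all tested genes, 23.0% were lower and 21.5% higher in U2SURP than in RBM17 knockdown, and 15.0% higher and 12.9% lower than in CHERP knockdown. This list divided the knockdowns: 28 of its 43 genes were lower in U2SURP than in RBM17 knockdown and 2 higher, while 21 were higher than in CHERP knockdown and 2 lower. CHGA, a granin, is an example, at 0.607 ± 0.148 CPM in U2SURP knockdown, against 6.23 ± 0.787 CPM in RBM17 knockdown and 0.297 ± 0.0809 CPM in CHERP knockdown, and 0.569 ± 0.102 CPM in control. Synaptophysin, SYP, followed the same order, at 17.4 ± 0.426 CPM in U2SURP knockdown, against 53.4 ± 2.50 CPM in RBM17 knockdown and 8.15 ± 1.01 CPM in CHERP knockdown.

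Lysosome and autophagy genes fell in 22 of 41 cases and rose in 13 (median -0.21). Several hydrolases fell. GLA, the galactosidase of Fabry disease, had 176, 152 and 165 CPM in U2SURP knockdown, against 311, 305 and 343 CPM in control (-0.96 ± 0.060, adjusted p = 3.16e-11) and GLB1 had 73.5, 65.6 and 70.8 CPM in U2SURP knockdown, against 119, 111 and 131 CPM in control (-0.78 ± 0.065, adjusted p = 2.23e-09). MCOLN1, a lysosomal calcium channel (-0.67 ± 0.082), and TFEB, the factor that drives such genes (-0.32 ± 0.095), fell too. CTSZ, a cathepsin, rose 3.35-fold but stayed scarce, with 1.25, 1.38 and 1.48 CPM in U2SURP knockdown, against 0.431, 0.414 and 0.378 CPM in control. The autophagy receptors NBR1 (0.43 ± 0.050) and SQSTM1 (0.29 ± 0.046) and the factor MITF (0.49 ± 0.064) rose. The element TCACGTGA that TFEB binds was in 4 of 31 matched promoters (CTSA, MCOLN1, ATP6V0D1 and LAMP1, all lower), against 210 of 12608 (1.67%). Of those 210 genes 77 rose and 65 fell, with a median of 0.054.

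Several families of surface and secretory proteins were also lower in most or many of their members, grouped by gene symbol after the lists had been seen and therefore given without a test. Solute carriers outside the mitochondrial SLC25 family fell in 155 of 282 cases (55.0%) and rose in 25 (8.87%), against 26.8% and 29.4% of all protein-coding genes. SLC25 carriers of mitochondria did not: 17 of 46 rose and 11 fell. Semaphorins and plexins, which guide axons and cells, fell in 21 of 28 cases and rose in 1. Ephrins and their receptors fell in 17 of 22 and rose in 1, integrins fell in 16 of 28 and rose in 2, and glycosyltransferases of the ER and Golgi fell in 43 of 73 and rose in 4. Collagens fell in 21 of 43 and rose in 4. Protocadherins, a surface adhesion family, fell in 12 of 50 cases (24.0%), below the share of all protein-coding genes, and rose in 2. Examples are PLXNA1, a semaphorin receptor (-0.43 ± 0.063), EPHB2, an ephrin receptor (-0.47 ± 0.070), ITGAV, an integrin chain (-0.62 ± 0.059), and COL4A2, a basement membrane collagen (-0.66 ± 0.054), all chosen after their values were seen. Several complexes inside the cell were more often higher: 28 of 43 proteasome subunits rose and 1 fell, 39 of 78 mitochondrial ribosomal proteins rose and 10 fell, and 10 of 19 subunits of the vesicle coats COPI and COPII rose and 1 fell. Of 21 subunits of the V-ATPase, the proton pump of lysosomes, 6 rose and 8 fell. The plot of families shows 11 families, without protocadherins and the V-ATPase, beside the share for all protein-coding genes.

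**Figure D4:**
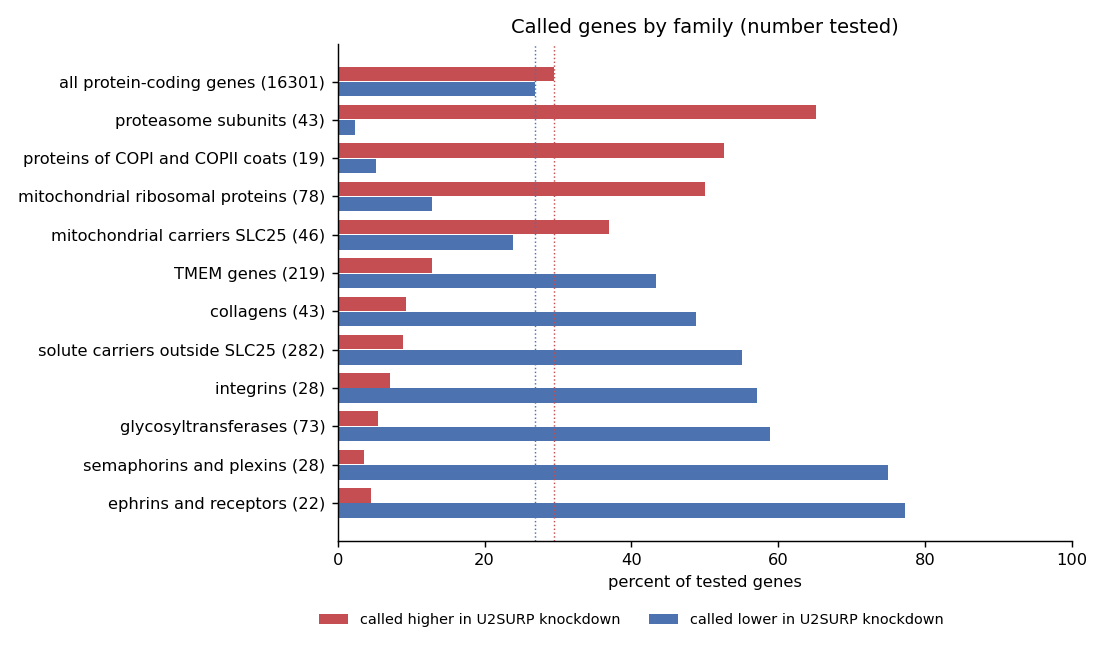
Percent of tested genes called higher (red) and lower (blue) in U2SURP knockdown against control for families grouped by gene symbol (rows, number tested in brackets), with the shares of all protein-coding genes, 29.4% and 26.8%, as dotted lines. The families of membrane and secreted proteins drawn here, SLC25 excepted, exceed the blue line and proteasome subunits, coat proteins and mitochondrial ribosomal proteins exceed the red one.

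Calls also followed the base composition of genes. With the protein-coding genes split into 5 equal classes by the GC content of their transcripts, 35.6% were higher and 21.7% lower in the class with the lowest GC content, against 17.6% and 36.9% in the class with the highest. Median levels of these classes were 29.6 and 7.72 CPM, so base composition and level are not separated by this split. When offsets for GC content and length were added to the fit, 6161 genes were called higher and 7069 lower, and 91.2% of the genes called without offsets were called in the same direction. In that fit solute carriers outside SLC25 still fell in 157 of 282 cases and rose in 28. By intron number, genes without introns were higher in 15.9% and lower in 24.0% of cases, those with 6 to 10 introns in 33.2% and 26.7%, and those with 21 or more in 27.3% and 30.8%. Genes without introns had a median level of 0.8 CPM, against 53.8 CPM for those with the most introns, and the share of genes called rises with the level. The part of base composition in the gene groups was not tested beyond these offsets.

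**Figure D5:**
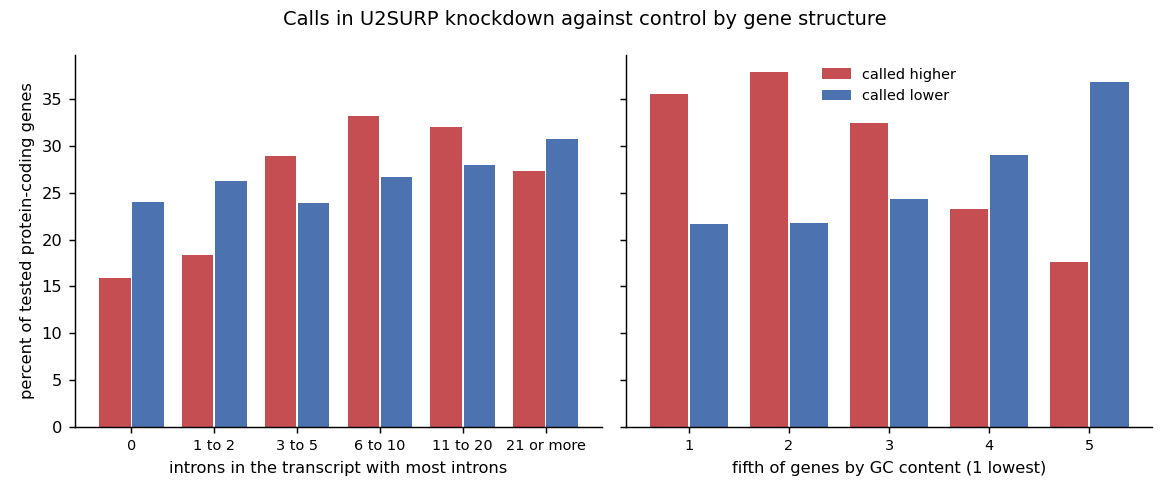
Percent of tested protein-coding genes called higher (red) and lower (blue) in U2SURP knockdown against control, by the number of introns in the transcript with most introns (left) and by 5 equal classes of GC content (right). The share called lower is 36.9% in the class with the highest GC content and 21.7% in the class with the lowest.

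Set directly against the other knockdowns, U2SURP knockdown differed from RBM17 knockdown in 12899 genes (44.5%; 6232 higher and 6667 lower) and from CHERP knockdown in 8078 (27.9%; 4340 higher and 3738 lower). Library numbers of U2SURP and CHERP knockdown adjoin, so nearness of response and of preparation cannot be told apart. With the offsets for GC content and length these splits became 8004 higher and 5495 lower, and 4079 higher and 5203 lower, and the balance of directions turned in both comparisons. Against RBM17 knockdown the largest increases after RPS6 were in TNXB, a matrix protein (2.37), EGR1 (2.23), RBM17 itself (2.20) and DLEC1 (2.18). Among the largest decreases were SH2D3C, a signalling adaptor (-2.66), DPYSL4 (-1.9996), EMILIN2, a matrix glycoprotein (-1.99), and CARMIL2 (-1.91). EMILIN2 had 20.8, 19.7 and 17.4 CPM in the U2SURP-knockdown libraries and a mean of 76.7 ± 8.83 CPM in RBM17 knockdown.

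Against CHERP knockdown the largest increases were in GNG4, a G-protein gamma subunit (1.86), CHERP itself (1.74), CDC34, a ubiquitin-conjugating enzyme (1.63), CAVIN4 (1.58) and NPTXR, a pentraxin receptor (1.52). CDC34 had 58.8, 55.3 and 56.1 CPM in U2SURP knockdown, a mean of 18.4 ± 0.629 CPM in CHERP knockdown, and 54.7, 48.6 and 55.7 CPM in the controls, from which U2SURP knockdown did not differ by the test (0.10 ± 0.055, adjusted p = 0.158). GNG4 moved away from control in U2SURP knockdown as well, with 112, 117 and 114 CPM in U2SURP knockdown, against 63.5, 59.6 and 69.1 CPM in control. The largest decreases after U2SURP and CERK were in IMPDH2, an enzyme of guanine nucleotide synthesis (-1.31), SKIDA1 (-1.22) and LGR6, an R-spondin receptor (-1.21). IMPDH2 had 301, 306 and 322 CPM in U2SURP knockdown, against 459.9, 441 and 499.9 CPM in control (-0.59 ± 0.066, adjusted p = 1.56e-07), and its mean in CHERP knockdown was 767 ± 53.4 CPM. Each of the differences listed from RBM17 or CHERP knockdown had an edgeR adjusted p of at most 1.96e-04, the value of EGR1 against RBM17 knockdown.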

How the data were processed

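Per the labels' protocols, stranded mRNA libraries were sequenced; for each library the authors deposited whole-number counts per gene, not normalized. HISAT2 2.0.5, SAMtools, HTSeq and GRCh38 are named in the submitters' processing notes, without their roles; neither the annotation release nor the strand setting is given in the sources used here, so reads of overlapping antisense genes may be mixed. Gene names and positions were taken from GENCODE 29 and promoter sequences from RefSeq (GRCh38.p14; 12608 of 16301 tested protein-coding genes matched).

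Libraries were grouped by the siRNA in their labels. All 12 libraries were fitted together in edgeR 4.0.16 (R 4.3.3) with TMM scaling, filterByExpr and the robust quasi-likelihood test, and U2SURP knockdown was contrasted with control, RBM17 knockdown and CHERP knockdown. A gene was called at a Benjamini-Hochberg adjusted p under 0.05, standard errors came from the F statistic, and CPM values are TMM-scaled. On simulated counts for 28081 genes in the U2SURP comparison, 83.58% of 67 genes changed by 0.5 on the log2 scale and 100% of 67 changed by 1 were recovered, and 18 unchanged genes were called. Pairs of replicates differed by more than counting noise, so each library was used as 1 sample.

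The members of the 43 gene lists and the tests were chosen with earlier results of these data known. Named are U2SURP, RBM17 and CHERP, the 12 largest changes each way among protein-coding genes with a mean of at least 5 CPM, the 5 largest among long non-coding genes with at least 1 CPM, up to 3 called genes each way per list by p, up to 8 genes each way that differed from all other groups, and the 5 largest each way in the direct contrasts. TRIB3, DDIT3, CHAC1, HSPA5, CRELD2, DEGS1, CLK1, CHGA and other list members named beyond that rule were chosen after their values were seen, as were the gene families. Some genes that the rule names are not reported here. Alternatives were DESeq2 1.42.0 (size factors and the Wald test), other filters, a fit of the 6 libraries alone, protein-coding genes alone, each library left out and, added after seeing the data, offsets for GC content and length.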

Additional observations from a re-analysis of the deposited data

How the results depend on the processing

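Of 298 values of named genes, 282 kept their direction and their side of the threshold under every alternative run, and of 43 gene lists 40 kept the count in their more frequent direction within 1.5 times; the exceptions were glycolysis (7 higher, or 4), heat shock (7 higher, or 4) and blood cell markers (1 higher, or 0), each with a library left out. With both directions counted, 25 lists stayed within 1.5 times and 18 did not, among them mitosis, the respiratory chain, amino acid transporters (2 higher, or 4 with offsets), SR proteins (1 higher, or 3 without control library 3) and the ER translocon. The more frequent direction turned in 2 lists, glycolysis and p53 targets. The medians of 31 of 43 lists moved under some alternative by more than 1 SD between the knockdown libraries, and that of 3 changed sign (heat shock, aldehyde dehydrogenases and glucose sensing). The log2 fold change of CHERP turned from -0.027 to 0.00125 with DESeq2 size factors and in the DESeq2 Wald test and to 0.0983 with offsets for GC content and length, without passing the test, and that of POLD1 to 0.0102 with the offsets. RBM17 passed the Wald test (0.112, adjusted p = 0.0451) and no other. SLC43A2, SNRNP27, SUGP1, TRA2B, KLF6, EEF1D, FDFT1, HSPA1B and TAF1D lost their calls under some alternatives. The count of genes changed at least 2-fold, 1578, was 409 with a mean of at least 1 CPM in a group and 608 among protein-coding genes alone. Fewer genes are tested in both, but calls of any size fell by less, from 12549 to 10593 and 9582. Many of the 2-fold changes were thus in scarce or non-coding genes. The balance of 6119 higher and 6430 lower became 6625 and 5898 with size factors, 6797 and 6050 in the Wald test, 6494 and 6443 with the 6 libraries alone, 4919 and 4663 among protein-coding genes alone and 6220 and 6107 without control library 3; the median over all genes was -0.025 with TMM and 0.0038 with size factors. With each library left out, the calls ranged between 10603 and 12327 against control, 11088 and 12628 against RBM17 knockdown and 6200 and 7519 against CHERP knockdown. The same ranges were 1347 to 1713 for changes of at least 2-fold, 341 to 492 and 414 to 595 for genes higher and lower than in all other groups, -1.77 to -1.67 for U2SURP, and -3.45 to -3.04 percentage points for the mitochondrial share (main difference -3.24). The higher and lower calls behind them ranged between 5213 and 6220 and between 5378 and 6326 against control, 4897 and 5998 and 5810 and 6948 against RBM17 knockdown, and 3410 and 4141 and 2790 and 3378 against CHERP knockdown. No paired analysis was possible because the replicate numbers follow accession order and name no shared culture or batch. Depth limits the genes near the filter. The median standard error over all tested genes was 0.135, and in genes above it changes well under 0.5 on the log2 scale were often not detectable. Genes with smaller errors were called at smaller changes, such as UPF1 (0.18 ± 0.049).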

Other observations

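Several gene groups outside the main account moved by little or were divided. Of 20 heat shock and cytosolic chaperone genes 7 rose and 5 fell: HSPA4, a cochaperone of the HSP70 type, rose (0.49 ± 0.061, adjusted p = 6.46e-07), as did STIP1 (0.33 ± 0.057) and AHSA1 (0.23 ± 0.056), which serve HSP90, while DNAJB1 (-0.49 ± 0.052), HSPA8 (-0.50 ± 0.072) and HSPA1B (-0.24 ± 0.067) fell. Against RBM17 knockdown 18 of these 20 genes were lower in U2SURP knockdown and none higher, where 23.0% of all genes were lower and 21.5% higher. Against CHERP knockdown 11 were lower and 1 higher, where 12.9% of all genes were lower and 15.0% higher. Of 24 targets of p53, which large T antigen binds in HEK293T cells, 6 rose and 5 fell, or 5 and 7 with offsets for GC content and length: RRM2B (0.65 ± 0.12), GADD45A (0.31 ± 0.077) and GDF15 (1.95 ± 0.38) rose, and CDKN1A, the inhibitor of cyclin-dependent kinases, had 32.99, 30.6 and 35.9 CPM in U2SURP knockdown, against 42.5, 39.00 and 41.7 CPM in control (-0.31 ± 0.068, adjusted p = 0.000653). Of 23 FOXO targets 7 rose and 5 fell. IRS2, which couples the insulin receptor to PI3K, had 13.7, 15.4 and 14.97 CPM in U2SURP knockdown, against 11.96, 11.6 and 11.98 CPM in control (0.31 ± 0.065, adjusted p = 0.000436) and IRS1 rose too (0.41 ± 0.073), whereas the receptors INSR (-0.43 ± 0.054) and ERBB3 (-0.80 ± 0.082) fell. Interferon-response genes, of which 23 of 28 were tested (IFI44, IFIH1, IFNB1, OAS1 and OAS2 did not pass the filter on low counts), divided into 6 higher and 8 lower: ISG15 had 4.03, 3.73 and 3.52 CPM in U2SURP knockdown, against 5.44, 4.96 and 4.56 CPM in control (-0.41 ± 0.092, adjusted p = 0.00081), with IFITM1 (-1.01 ± 0.15) and IFI6 (-0.68 ± 0.16) also lower and IFITM2 (0.65 ± 0.12) and IRF1 (0.31 ± 0.076) higher. Of 17 aldehyde dehydrogenases 7 rose and 3 fell; beside ALDH8A1 these were ALDH4A1 (-0.55 ± 0.085) and ALDH6A1 (-0.35 ± 0.072), while ALDH9A1 (0.46 ± 0.060), ALDH1B1 (0.27 ± 0.060) and ALDH1A2 (0.24 ± 0.058) led the increases.

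Long non-coding RNA genes were more often lower than higher: of 6867 tested, 636 rose (9.26%) and 1401 fell (20.4%), with a median of -0.155. Of all tested genes 21.1% rose and 22.2% fell, so the share that fell was near that of all genes and the share that rose was below it. Their median level was 0.227 CPM, against 18.8 CPM for protein-coding genes. The largest increases with a mean of at least 1 CPM were in LINC02519, with 2.11, 2.48 and 2.58 CPM in U2SURP knockdown, against 0.725, 0.549 and 0.382 CPM in control (2.10 ± 0.16, adjusted p = 7.55e-10), AC116535.1 (1.74 ± 0.11), DNAJC27-AS1 (1.66 ± 0.13), AC092376.2 (1.64 ± 0.11) and AC004453.2 (1.60 ± 0.14). The largest decreases were in LINC01126, with 1.44, 1.39 and 1.31 CPM in U2SURP knockdown, against 6.25, 5.51 and 5.12 CPM in control (-2.03 ± 0.11, adjusted p = 3.83e-12), SLC9A3-AS1 (-1.91 ± 0.15), AC009159.3 (-1.73 ± 0.12), AC009041.2 (-1.62 ± 0.13) and AC116614.1 (-1.54 ± 0.13). AC116535.1, DNAJC27-AS1, AC092376.2 and SLC9A3-AS1 overlap a gene on the opposite strand and AC009041.2 one on its own strand, LMF1, so their reads may be shared.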
